A study of Mus musculus with 8 samples.

Results

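The SPARC family of matricellular proteins was examined through its 8 members in the deposited gene table, which are *Smoc1*, *Smoc2*, *Sparc*, *Sparcl1*, *Spock1*, *Spock2*, *Spock3* and *Fstl1*. They were taken by gene symbol from the 18901 genes listed, and all 8 had enough reads to be tested. The family was selected on a measured value, the edgeR p-value of the comparison between genotypes, by which *Smoc1* ranked 1 of 17124 tested genes. Differences of the members between genotypes are therefore given as descriptions, without a test.

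RNA was sequenced from cheek skin of 4 mice of genotype TBX20fl/fl;K14-Cre (knockout mice in what follows) and from 4 littermates of genotype TBX20fl/fl (control mice), each mouse being 1 library. *Tbx20* encodes a T-box transcription factor, and the comparison addresses what its loss in keratinocytes does to gene expression in skin exposed to the itch peptide BNP. Mice of both groups carried floxed *Tbx20* alleles. They received 10 µg of BNP intradermally in the left cheek at 7 weeks of age and were filmed for 30 min, and tissue was taken a further 5 h later. The *K14* promoter, active in basal keratinocytes, drove Cre in the first group and removed exons 2 and 3 of *Tbx20* there. Fibroblasts, vessels, muscle and immune cells of the same tissue were not targeted. The control group had no Cre. The design text of the series calls it wild type, whereas its genotype label and the study's methods say floxed. The study's methods describe the mice injected with BNP as female.

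Matricellular proteins are secreted into the extracellular matrix but serve less as building blocks than as modulators, which bind growth factors, proteases, receptors and collagen. SPARC itself, also called osteonectin, binds collagen and takes part in fibril assembly in the dermis. SMOC1 and its relatives carry the calcium-binding domain first described in SPARC. SMOC1 is known from developmental work as an antagonist of bone morphogenetic protein (BMP) signalling, a pathway that patterns hair follicles.

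The domain annotation deposited with the table divided the family into sub-families. The SPARC calcium-binding region was listed for 7 genes of the whole table, all of them members. Only *Fstl1* lacked it among the members. A thyroglobulin type-1 repeat was listed for 17 genes, of which 5 were members, namely *Smoc1*, *Smoc2* and the testican genes *Spock1*, *Spock2* and *Spock3*. The follistatin/osteonectin-like EGF domain was listed for 5 genes, of which 3 were the members *Sparc*, *Sparcl1* and *Fstl1*. A Kazal-type protease inhibitor domain was listed for 47 genes, including all 8 members.

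The members lie on 8 different chromosomes of GRCm38. *Smoc1* (NCBI gene 64075) spans chr12:81026808-81186414 on the plus strand and *Smoc2* (64074) spans chr17:14279490-14404790 on the plus strand. *Sparc* (20692) lies at chr11:55394159-55420080 and *Sparcl1* (13602) at chr5:104079108-104114088, both on the minus strand. *Spock1* (20745) lies at chr13:57421195-57908332 on the minus strand, *Spock2* (94214) at chr10:60103345-60135198 and *Spock3* (72902) at chr8:62951000-63357101, both on the plus strand. *Fstl1* (14314) lies at chr16:37777055-37836516 on the plus strand.

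The reads were 50 bases long, so the closest stretches of that length between paralogues show whether a read of one gene could be counted for another. The pairs *Smoc1* with *Smoc2* and *Sparc* with *Sparcl1* are shown, read from the GENCODE M21 transcripts. Each stretch is exonic and coding and is written 5′ to 3′ on the strand of its gene, with the bases that differ within a pair in capitals.
Smoc1: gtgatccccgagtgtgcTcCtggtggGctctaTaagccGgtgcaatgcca
Smoc2: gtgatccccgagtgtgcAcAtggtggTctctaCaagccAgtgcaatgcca
Sparc: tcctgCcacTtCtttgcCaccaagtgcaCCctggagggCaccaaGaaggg
Sparcl1: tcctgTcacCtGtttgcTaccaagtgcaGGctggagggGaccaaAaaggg

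The *Smoc1* stretch lies at chr12:81167581-81167630 in exon 8 of 13, and the *Smoc2* stretch at chr17:14368976-14369025, also in exon 8 of 13. They differed at 5 of 50 bases, and the longest identical run anywhere in the coding parts of the pair was 33 bases. The *Sparc* stretch lies at chr11:55401989-55402038 and the *Sparcl1* stretch at chr5:104088435-104088484, each in exon 7 of 11. They differed at 8 of 50 bases. No stretch of 50 bases was shared exactly between any members. *Smoc1* shared 0 of its 3543 stretches with any other annotated gene, and *Smoc2*, *Sparcl1* and *Spock1* also shared 0. The largest share was that of *Fstl1*, where 265 stretches (5.35%) also occurred in other genes.

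Deposited counts summed to 19260856 to 19880654 per knockout mouse and 16056282 to 19617762 per control mouse, and 3 counts corresponded to 0.151 to 0.187 CPM (counts scaled to the library total), for counting error only. *Tbx20* had at most 2.09 counts in a knockout mouse and 3.01 in a control mouse, so its loss was not detectable at this depth. control replicate 2 stood apart from the other libraries. It had the lowest total and a TMM scaling factor of 0.735, against 1.01 to 1.07 in the others, and its median Spearman correlation with the other mice was 0.949, against 0.973 to 0.987. Levels relative to the other mice also varied with transcript length. The Spearman correlation of a mouse's deviation from the others with length, over genes, was 0.262 to 0.623 in the 4 knockout mice and 0.455, -0.782, -0.353 and 0.430 in control replicates 1 to 4. Control replicates 1 and 4 thus lay within the knockout range. Each other mouse was set against a mean that included control replicate 2. Fold changes without control replicate 2, or with the length trend removed from each mouse, stand beside the main values of several genes and lists. The keratinocyte marker *Krt14* was abundant, with a mean of 1158 FPKM (fragments scaled to transcript length and library total, without the TMM factor) in knockout mice and 1269 in control mice. The 6 keratinocyte markers summed to 2951 to 3770 FPKM in knockout mice and 2562 to 3854 in control mice. The 7 skeletal muscle markers summed to 7789 to 13191 and 10218 to 13709 FPKM, so the samples labelled skin held muscle transcripts as well. In bulk tissue, fewer cells of a type and less RNA per cell cannot be told apart.

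*Smoc1* had more than 2 times the level in knockout mice that it had in control mice, with no overlap between the groups. Its level was 10.8, 12.1, 13.2 and 10.5 FPKM in knockout replicates 1 to 4. It was 5.62, 2.54, 6.14 and 5.52 FPKM in control replicates 1 to 4. Each knockout mouse was thus above every control mouse, and the lowest value of all was that of control replicate 2. The means were 11.6 ± 1.25 and 4.96 ± 1.63 FPKM (SD, n = 4 each), a ratio of 2.35. Without control replicate 2 the control mean was 5.76 ± 0.333 (n = 3) and the ratio 2.02. The counts behind these levels were 709.8 to 885.1 and 139.0 to 396.9 per mouse. The log2 fold change fitted to the counts was 1.11 (SE 0.188) with all mice and 0.97 (SE 0.111) without control replicate 2. Between mice with the same replicate number the ratio was 1.89 to 4.76, higher in 4 of 4 pairs. *Smoc2*, *Sparcl1*, *Spock2* and *Fstl1* were also higher in 4 of 4 such pairs, with ratios of 1.03 to 1.37, 1.01 to 1.59, 1.15 to 2.42 and 1.03 to 1.90. That made 5 of 8 members, beside 21.2% of all genes, and for *Smoc1* it follows from the groups not overlapping. These ratios lack the TMM factor of the fits, which was 0.735 in control replicate 2 and 1.06 in knockout replicate 2. Scaling by it would lower the ratios of that pair, which were 1.37 for *Smoc2* and 1.07 for *Sparcl1*, so the count of members depends on this scaling.

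*Smoc2*, the paralogue of *Smoc1* and a matrix protein with the same listed domains, was more abundant than *Smoc1* in every mouse. It was at 31.5, 26.6, 41.3 and 42.1 FPKM in knockout replicates 1 to 4. In control replicates 1 to 4 it was at 30.6, 19.4, 30.6 and 31.6 FPKM. The groups overlapped, since knockout replicate 2 was below 3 of the control mice. The fitted log2 fold change of *Smoc2* was 0.19 (SE 0.172). It was 0.11 without knockout replicate 3, 0.10 without knockout replicate 4 and 0.30 without knockout replicate 2. As a share of the *Smoc2* level within the same mouse, *Smoc1* was at 34.3%, 45.5%, 31.9% and 24.9% in knockout mice. That share was 18.3%, 13.1%, 20.1% and 17.5% in control mice. The share was thus higher in each knockout mouse than in every control mouse, which is a description too, since it contains the *Smoc1* values that the choice used.

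*Sparc*, the founding member, was by far the most abundant. It was at 773, 989, 1550.3 and 869 FPKM in knockout replicates 1 to 4. The control replicates were at 779, 629, 969 and 900.3 FPKM. Only knockout replicates 2 and 3 were above every control mouse, so the groups overlapped. The fitted log2 fold change was 0.20 (SE 0.241) and became -0.049 without knockout replicate 3 and 0.31 without knockout replicate 1.

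*Sparcl1* encodes SPARC-like 1, or hevin, a secreted glycoprotein studied at synapses and in vessel walls. It was at 63.1, 46.9, 63.8 and 77.2 FPKM in knockout replicates 1 to 4. In control replicates it was at 62.1, 43.8, 63.2 and 48.6 FPKM. The values of the groups were interleaved, and the fitted log2 fold change of 0.048 (SE 0.183) was the closest to 0 in the family. It was below 0 under 3 of the 17 alternative settings, at -0.020 with the length trend removed, -0.059 without knockout replicate 4 and -0.040 without control replicate 4.

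*Spock2*, which encodes the proteoglycan testican-2, was the only testican above 1 FPKM. It was at 8.57, 4.53, 9.29 and 8.69 FPKM in knockout replicates 1 to 4. The control replicates were at 7.48, 1.87, 5.97 and 6.26 FPKM. Replicate 2 was the lowest mouse of each group, and knockout replicate 2 lay among the controls. The fitted log2 fold change was 0.42 (SE 0.326). It was 0.19 without control replicate 2, 0.22 with the length trend removed, and 0.46 with a smaller error (SE 0.147) when the replicate number was a block in the fit.

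*Spock1* and *Spock3*, the other testican genes, were near the limit of what these libraries could measure. *Spock1* had 9 to 26 counts in knockout mice and 3 to 12 in control mice, or 0.173 ± 0.0818 and 0.0925 ± 0.0411 FPKM (SD, n = 4 each). *Spock3* had 17 to 29 and 20 to 38 counts, or 0.378 ± 0.0842 and 0.503 ± 0.131 FPKM. *Spock3* was the only member with a lower fitted level in knockout mice, with a log2 fold change of -0.60 (SE 0.306), and *Spock1* had 0.77 (SE 0.405), or 0.42 without knockout replicate 2. Both sets of values overlapped between the groups.

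*Fstl1* encodes follistatin-like 1, a secreted glycoprotein that can bind BMP4. It was at 134.7, 169.5, 214.5 and 181.5 FPKM in knockout replicates 1 to 4. In control replicates it was at 131.2, 89.0, 176.1 and 147.6 FPKM. Only knockout replicates 3 and 4 exceeded all controls, and the fitted log2 fold change was 0.22 (SE 0.194), or 0.097 with the length trend removed. It was 0.11 without knockout replicate 3 and 0.35 without control replicate 3.

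**Figure D1:**
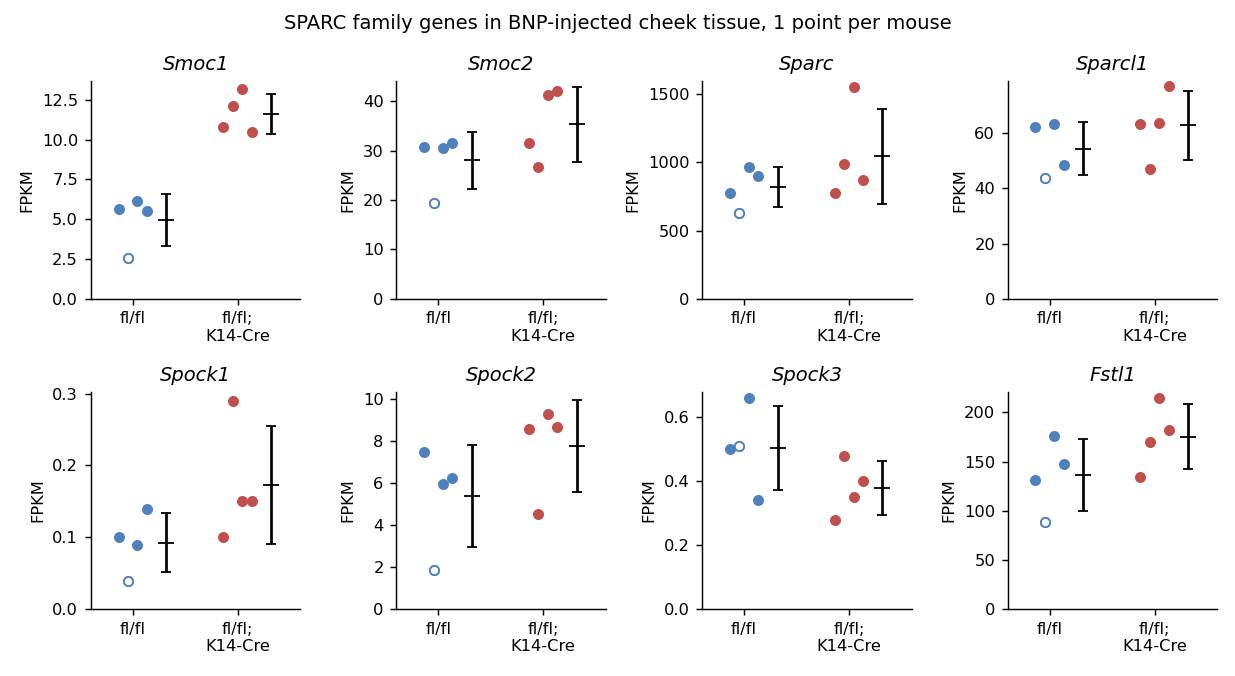
FPKM of each member (vertical axes, from 0) in control mice (blue) and knockout mice (red), 1 point per mouse in the order of the replicate numbers. Bars give the mean ± SD (n = 4), and the open point is control replicate 2. *Smoc1* is the only panel in which the groups do not overlap (10.5 to 13.2 against 2.54 to 6.14 FPKM).

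By the edgeR fit, 7 of 8 members had a higher fitted level in knockout mice and 1 had a lower one. Over all 17124 genes the median log2 fold change was 0.026 and 52.5% of genes were fitted higher. In edgeR's quasi-likelihood test 0% of all genes had an adjusted p-value under 0.05, the smallest Benjamini-Hochberg adjusted p being 0.498, and the count was 0 of 8 among the members. At an unadjusted p under 0.05, edgeR called 1431 genes, of which 419 (2.45%) were higher and 1012 (5.91%) lower. Of the members, 1 was among the higher genes, *Smoc1*, as its selection on this p-value implies, and 0 were among the lower. FPKM of all knockout mice lay above all control mice in 5.19% of genes, among them 1 of 8 members, and below in 1.87%, with 0 members. Limma on FPKM also called 0 genes after adjustment and 1046 before it. DESeq2's Wald test called 10 genes after adjustment (0.0586%), with 1 member among them, *Smoc1*, whose selection on this comparison leaves nothing to be read from that call. Of 13263 genes whose FPKM averaged 1 or more, 110 were at least 2 times higher in knockout mice by the fit, and in 10 of these, *Smoc1* included, the FPKM values did not overlap either.

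**Figure D2:**
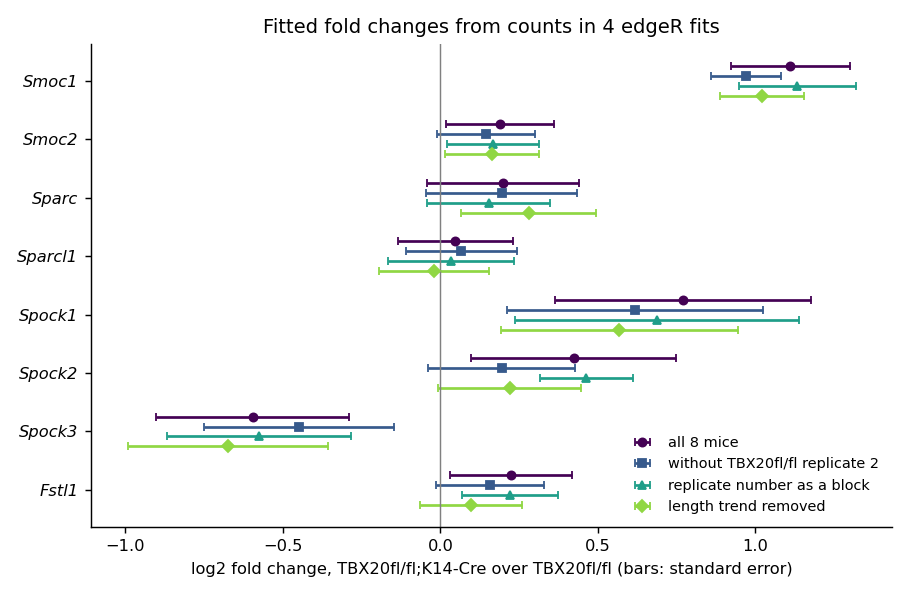
Log2 fold change of each member (horizontal axis, TBX20fl/fl;K14-Cre over TBX20fl/fl) with its standard error in 4 edgeR fits, marked by symbol. *Smoc1* stays between 0.97 and 1.13 in these fits, whereas *Sparcl1* lies on both sides of 0.

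The order of the family by level per length was compared within mice, over both genotypes together. The choice of members did not use it, except that the place of *Smoc1* includes its knockout values. *Sparc* came first, followed by *Fstl1*, *Sparcl1*, *Smoc2*, *Smoc1*, *Spock2*, *Spock3* and *Spock1*. *Sparc* accounted for 78.1% of the summed FPKM of the family and stood at the 99.4 percentile of genes, and *Fstl1* accounted for 13%. *Smoc1* accounted for 0.695% of the sum. Of the 7 pairs of neighbours in the order, 6 kept that order in 8 of 8 mice (two-sided exact sign-flip permutation test on log2(FPKM + 0.1), p = 0.00781, the smallest that 8 mice allow, Benjamini-Hochberg adjusted 0.00911). Because the pairs were formed from the means of the same mice, these p-values describe only how steady the order was. The neighbours *Smoc1* and *Spock2* did not differ beyond their spread, with a mean log2 difference of 0.30 (SD 0.542, n = 8). Their order by genotype is a description only, since it contains the *Smoc1* values that the choice used. Mean FPKM was 11.6 for *Smoc1* and 7.77 for *Spock2* in knockout mice, and 4.96 and 5.40 in control mice, so the control means gave the reverse order. *Smoc1* was above *Spock2* in 4 of 4 knockout mice. Among control mice it was above *Spock2* in replicates 2 and 3 and below it in replicates 1 and 4.

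**Figure D3:**
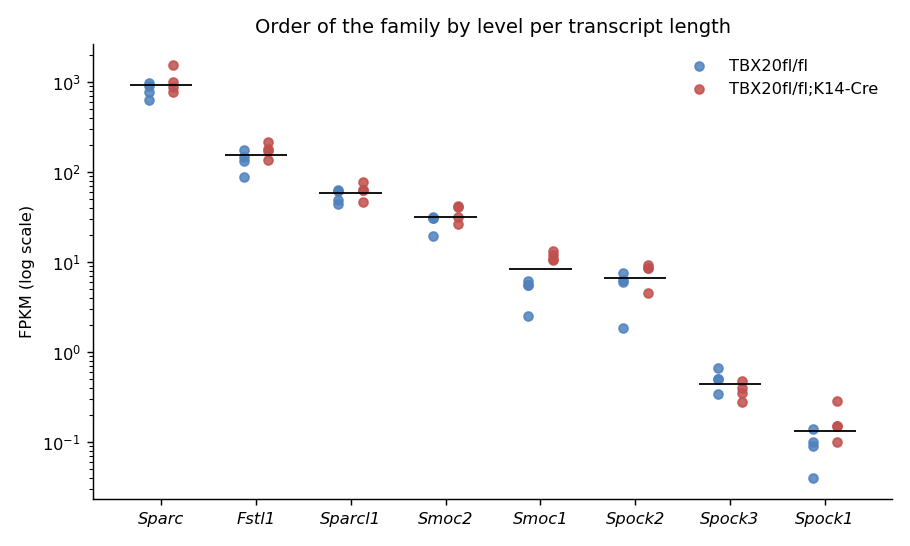
FPKM of the 8 members on a log axis, in descending order of the mean over 8 mice (black line), with 1 point per mouse (blue TBX20fl/fl, red TBX20fl/fl;K14-Cre). The family spans from *Sparc* (mean 932 FPKM) to *Spock1* (0.133 FPKM), and *Smoc1* and *Spock2* lie at like levels.

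The spread among mice also differed between members. The coefficient of variation of *Smoc1* was 10.7% in knockout mice and 33% in control mice, where replicate 2 set it. That of *Sparc* was 33.3% and 18.2%, and knockout replicate 3 set the first of these (1550.3 FPKM against 773 to 989 in the other knockout mice). Across the 8 mice, the Pearson correlation with *Smoc1* on log2 CPM was 0.636 for *Fstl1*, 0.614 for *Spock2*, 0.437 for *Smoc2*, 0.392 for *Sparc* and -0.000315 for *Sparcl1*. Without control replicate 2 it was 0.470 for *Fstl1*, 0.161 for *Spock2*, 0.253 for *Smoc2*, 0.421 for *Sparc* and 0.077 for *Sparcl1*. With deviations from the group means it was 0.617 for *Fstl1*, 0.647 for *Spock2*, 0.223 for *Smoc2*, 0.389 for *Sparc* and -0.196 for *Sparcl1*. Between 3604 and 6810 of 13263 genes were more like *Smoc1* than these members were. These correlations describe 8 mice that share the difference between genotypes, and they carry no test.

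The genes whose pattern over the 8 mice was most like that of *Smoc1*, among 13263 genes, were *Nkap* (Pearson r 0.979), *Ehbp1* (0.967), *Poc1b* (0.962), *Dach1* (0.954) and *Tspan14* (0.950). *Dach1*, a transcriptional cofactor, had 1.79 ± 0.155 FPKM in knockout mice and 1.02 ± 0.291 in control mice (SD, n = 4 each). All 5 genes had their lowest FPKM in control replicate 2. When that mouse was left out, or when deviations from the group means were used, 0 of these 5 genes were among the 5 most alike, although their own correlations with *Smoc1* were still 0.915 to 0.963 and 0.756 to 0.949.

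Genes that act with the family were taken from 7 lists with 97 different genes. After Benjamini-Hochberg adjustment 0 of the 97 passed edgeR's test, while 11 were higher and 3 lower at an unadjusted p under 0.05, beside 2.45% and 5.91% of all genes. The values that follow are therefore levels and fitted differences, not calls.

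Among 21 other matricellular genes the median log2 fold change was 0.30 (0.065 with the length trend removed, 0.13 without knockout replicate 4, 0.16 without knockout replicate 2), with 13 fitted higher and 8 lower, and 5 had an unadjusted p under 0.05. *Thbs4*, encoding thrombospondin-4 of tendon and muscle matrix, was at 18.1, 22.3, 23.3 and 25.0 FPKM in knockout replicates and at 11.3, 9.15, 14.3 and 16.6 in control replicates. Its groups did not overlap, and its log2 fold change was 0.64 (SE 0.162, edgeR adjusted p = 0.498). *Matn2*, encoding the filament-forming matrilin-2, had 0.37 (SE 0.129), or 0.24 with the length trend removed. *Spp1*, encoding osteopontin, was at 7.14, 7.61, 8.81 and 15.0 FPKM in knockout replicates and at 13.2, 30.7, 16.8 and 69.8 in control replicates. Its groups overlapped through knockout replicate 4, and its log2 fold change was -1.93 (SE 0.512, edgeR adjusted p = 0.498). *Ccn5* had -0.47 (SE 0.203).

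Of 16 BMP ligand and receptor genes, 15 were fitted higher, with a median log2 fold change of 0.27 that was 0.14 without control replicate 2. *Gdf5*, a ligand of the BMP group, was at 0.328 ± 0.0450 FPKM in knockout mice and 0.123 ± 0.0814 in control mice (SD, n = 4 each), with a log2 fold change of 1.27 (SE 0.423, edgeR adjusted p = 0.498). These levels rested on 13 to 16.8 counts in knockout mice and 2 to 10 in control mice, close to the floor of 3 counts. *Bmp6* had 0.36 (SE 0.166) and *Bmp5*, the only gene of the list fitted lower, had -0.26 (SE 0.427). That of *Bmp5* was 0.0087 without control replicate 2, -0.47 with the length trend removed, and -0.031 to -0.67 when 1 knockout mouse was left out. Among 13 BMP antagonist genes, a function shared with *Smoc1*, the median was 0.12 (0.079 without control replicate 2) and 9 were fitted higher. *Chrdl1*, encoding the BMP-binding chordin-like 1, had 12.8 ± 2.31 and 8.22 ± 2.40 FPKM and a log2 fold change of 0.50 (SE 0.183), or 0.30 with the length trend removed. *Crim1* had 0.42 (SE 0.241), *Nbl1* -0.23 (SE 0.166) and *Fst*, encoding follistatin, -0.20 (SE 0.184). Without control replicate 2 these were 0.22, -0.14 and -0.12, and with the length trend removed *Crim1* was at 0.14 and *Nbl1* at -0.048.

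Among 12 BMP signal transducers and targets the median log2 fold change was 0.41, with 9 fitted higher. That median was 0.17 without control replicate 2, 0.19 without knockout replicate 2 and 0.18 with the length trend removed. *Msx2*, a homeobox gene downstream of BMP signalling, was at 0.79, 12.85, 1.76 and 0.77 FPKM in knockout replicates and at 0.86, 0.63, 1.06 and 0.62 in control replicates. *Msx2* is also among the 7 hair follicle markers given below. knockout replicate 2 alone carried its log2 fold change of 2.18 (SE 0.892), which was 0.31 without that mouse and 1.11 in the blocked fit, where its unadjusted edgeR p was no longer under 0.05. *Smad6*, encoding an inhibitory SMAD, had 0.46 (SE 0.241), or 0.24 without knockout replicate 2. *Id2*, a direct target gene of BMP signalling, was at 65.7 ± 8.54 FPKM in knockout mice and 105.4 ± 45.9 in control mice, with a log2 fold change of -0.94 (SE 0.373) that was -0.41 without control replicate 2, -0.47 with the length trend removed and -0.29 with both. *Id1* had -0.51 (SE 0.355), with -0.078 when that control mouse was left out and 0.022 once each mouse was corrected for its trend with transcript length.

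All 10 TGF-beta ligand and receptor genes were fitted higher, between 0.11 and 0.44, with 0 at an unadjusted p under 0.05, and their median of 0.22 was 0.060 without control replicate 2. *Tgfbr3*, encoding the co-receptor betaglycan, had a log2 fold change of 0.44 (SE 0.272). It was 0.23 without control replicate 2, 0.10 with the length trend removed and 0.49 (SE 0.185) with the replicate block, where its unadjusted edgeR p was under 0.05. *Smad2* had 0.22 (SE 0.141), which was 0.14 without control replicate 2 and -0.34 with the length trend removed. Among 13 genes for receptors and protease partners of the family the median was 0.28, or 0.18 without control replicate 2 and 0.16 with the length trend removed. *Itgb3*, an integrin subunit, had 0.64 (SE 0.269), or 0.33 with the length trend removed, and *Mmp14*, a membrane-bound metalloprotease, 0.48 (SE 0.224). *Ctsl*, encoding cathepsin L, had -0.48 (SE 0.258) and *Vcam1*, encoding a cell adhesion molecule, -0.37 (SE 0.246). Without control replicate 2 these were -0.19 and -0.18, and with the length trend removed *Ctsl* was at -0.23.

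The collagens and basement membrane components that SPARC and the SMOC proteins bind or lie beside gave the highest list median, 0.68 over 12 genes, with 11 fitted higher. Without control replicate 2 it was 0.42. An unadjusted p under 0.05 was found for 4 of them, *Col1a1*, *Col1a2*, *Nid1* and *Lamb1*. *Col1a1*, encoding a chain of type I collagen, was at 224.8, 364.8, 660.7 and 343.1 FPKM in knockout replicates and at 199.2, 60.7, 182.2 and 251.0 in control replicates. knockout replicate 3 was highest for *Col1a1*, as it was for *Sparc*, and the groups overlapped. The log2 fold change of *Col1a1* was 1.10 (SE 0.393, edgeR adjusted p = 0.498). *Lamb1*, encoding a laminin chain, was at 20.6, 22.7, 31.2 and 25.0 FPKM against 15.5, 7.25, 14 and 20.0, without overlap, with a log2 fold change of 0.70 (SE 0.220), or 0.36 with the length trend removed. *Vtn*, encoding vitronectin, had -0.14 (SE 0.222), and 0.033 with the length trend removed. It was 0.014 without knockout replicate 2 and -0.29 without knockout replicate 4. Once the length trend was removed from each mouse, the list medians were lower for 6 of these 7 lists, among them 0.025 for BMP ligands and receptors, -0.050 for TGF-beta genes and 0.37 for collagen and basement membrane genes. The share of genes without overlap was 14 of 97 higher and 0 of 97 lower over the lists, beside 5.19% and 1.87% of all genes, on FPKM values that still carry the length trend.

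**Figure D4:**
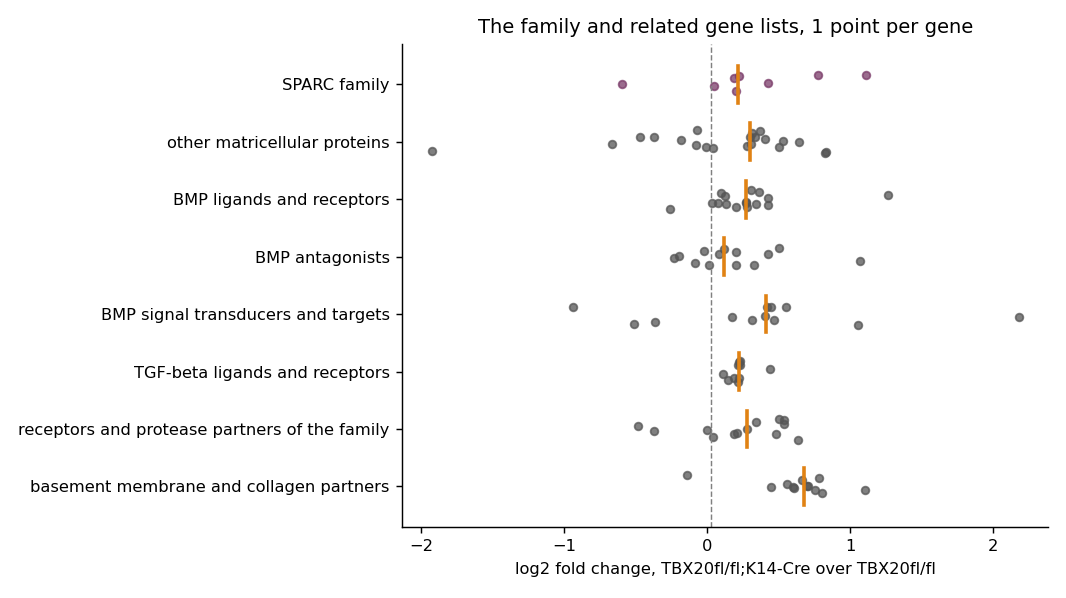
Log2 fold change (horizontal axis, TBX20fl/fl;K14-Cre over TBX20fl/fl) of each tested gene of the family and of 7 related lists, 1 point per gene. Orange lines are list medians and the dashed line is the median of all genes (0.026). The collagen and basement membrane list has the highest median (0.68).

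Markers of other cell types are given beside *Smoc1*, and 0 of them passed edgeR's test after adjustment. All 7 hair follicle markers were fitted higher in knockout mice, 6 of them at an unadjusted p under 0.05, with a median log2 fold change of 3.00. Among them *Msx2* had 2.18, or 0.31 without knockout replicate 2, the mouse with by far the highest sum. The 7 markers summed to 30.9, 1440.6, 197.7 and 47.3 FPKM in knockout replicates and 13.2, 64.0, 81.2 and 22.6 in control replicates, with overlap. In each same-numbered pair the knockout mouse had the higher sum. In the order of these sums, control replicates 1 and 4 came lowest, followed by knockout replicates 1 and 4, control replicates 2 and 3, and knockout replicates 3 and 2. All 5 neutrophil markers were fitted lower, 3 of them at an unadjusted p under 0.05, and they summed to 106.1, 214.6, 163.2 and 291.1 FPKM against 287.1, 920.3, 325.8 and 964.6. Their groups overlapped only through knockout replicate 4 and control replicate 1. Within each same-numbered pair the knockout mouse had the lower sum. Fibroblast markers summed to 3226 to 4006 and 3417 to 6015 FPKM, with a median log2 fold change of -0.0061 over 8 genes. No marker of these lists was at 0 in all mice. The part of these cells in the *Smoc1* difference was not tested.

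**Figure D5:**
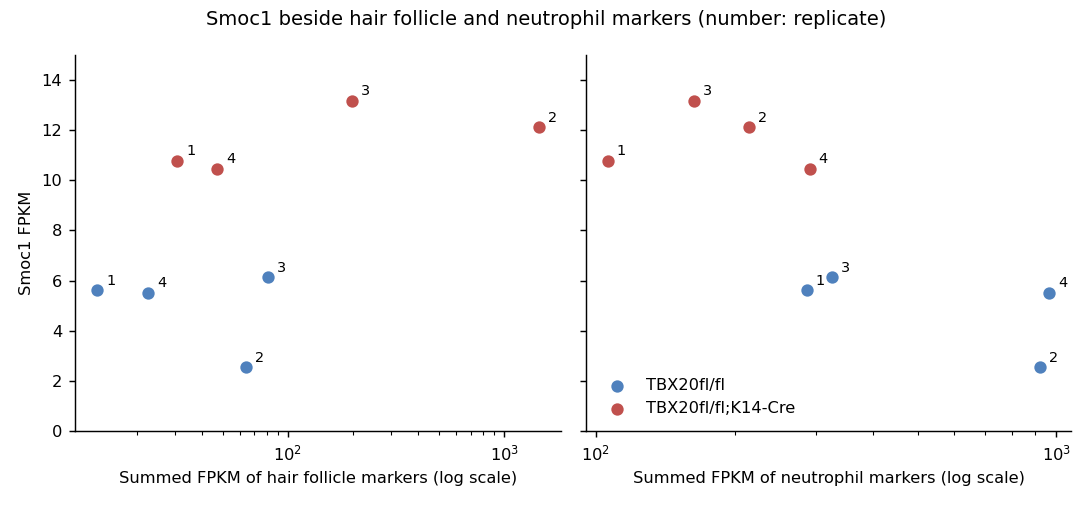
*Smoc1* FPKM (vertical axis, from 0) against the summed FPKM of 7 hair follicle markers (left, log axis) and of 5 neutrophil markers (right, log axis), 1 point per mouse with its replicate number, blue for TBX20fl/fl and red for TBX20fl/fl;K14-Cre. The hair follicle sums of the genotypes overlap between 30.9 and 81.2 FPKM and reach 1440.6 FPKM in knockout replicate 2, and the neutrophil sums are lowest in knockout replicate 1 (106.1 FPKM).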

How the data were processed

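RNA of 8 cheek skin samples was sequenced by the authors as single-end reads of 50 bases and aligned with HISAT. The authors deposited 1 table of 18901 genes on GRCm38. The deposited estimated counts are unscaled, and 69.0% of the nonzero values held a fraction of a read (tolerance 1e-06). The counting program, and whether counting used strand, are not given in the sources used here. The authors deposited FPKM values from their Dr. Tom platform, used here for levels, and TPM values, which the authors scaled to a fixed sum per mouse and which served for an alternative order of levels. Counts divided by size factors (8 columns, 1 per mouse), 40 columns of group means, and the authors' log2 fold changes, p-values and q-values for 17 comparisons were not used. Total counts per mouse limit precision for *Spock1* and *Spock3* above all.

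Groups followed the genotype labels. Counts were rounded, and the 17124 genes with at least 10 counts over 8 mice were TMM-scaled and compared in edgeR 4.0.16 (quasi-likelihood test, R 4.3.3), with Benjamini-Hochberg adjustment at 0.05. Limma 3.58.1 on log2(FPKM + 1), for genes averaging 0.1 FPKM or more, and DESeq2 1.42.0 were alternatives. Summaries used Python 3.11.15. Log2 CPM used a prior count of 2. The length trend was fitted in each mouse on genes averaging 50 counts or more, with length derived from counts and FPKM. The tests were checked on counts simulated with edgeR's own dispersions and without a length trend, unlike these data. With 200 changed genes, edgeR made 10 false calls, limma 17 and DESeq2 53. Limma and DESeq2 exceeded their nominal rate there. Members and lists were chosen with earlier results of these data known. Beyond members and *Tbx20*, the genes named were the 2 with the smallest unadjusted p in each direction of each list, and the 5 most like *Smoc1* among genes averaging 1 FPKM or more. *Krt14* and the genes behind a count were named in addition.

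The replicate numbers come from the sample titles, and the mice are different animals. Deviations of same-numbered mice from their group means correlated at 0.108 to 0.323 over genes (4 pairs), against -0.407 to 0.320 in the 12 other pairs, so the numbers were taken as pairs in an alternative fit with the number as a block.

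Keratinocyte, fibroblast, endothelial, pericyte and smooth muscle, hair follicle, skeletal muscle, adipocyte, Schwann cell and nerve, salivary gland, neutrophil and macrophage markers formed 11 further lists.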

Additional observations from a re-analysis of the deposited data

Results flagged for a closer look

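In 14 of 78 groups of 4 mice examined, 1 mouse lay far from the other 3 by Dixon's criterion, where chance gives about 1 in 20 groups, or 3.9. The 5 genes picked for following *Smoc1* over the mice gave 6 of the 14, which that choice favours, and without them 8 of 68 groups remained, where chance gives 3.4. Among the members these were *Smoc2* at 19.43 FPKM in control replicate 2 (30.58 to 31.62 in the others) and *Spock2* at 4.53 FPKM in knockout replicate 2 (8.57 to 9.29). *Smoc1* at 2.54 FPKM in control replicate 2 did not pass the criterion.

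control replicate 2 was also the lowest mouse, far from the other 3, for *Matn2* (7.5 FPKM), *Smad6* (0.85), *Vtn* (2.79), *Nkap* (3.25), *Ehbp1* (2.97), *Poc1b* (2.52), *Dach1* (0.59) and *Tspan14* (11.96). Every flag is on FPKM, which lacks the TMM factor of this library (0.735). Scaling by that factor would raise all values of control replicate 2, so its flags are not separate observations on each gene. knockout replicate 2 was far above the other 3 for *Msx2* (12.85 FPKM against 0.77 to 1.76) and *Smad6* (3.47 against 2.01 to 2.09). *Vcam1* was low in control replicate 4 (6.33 FPKM) and *Tspan14* in knockout replicate 1 (19.86 FPKM).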

How the results depend on the processing

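The fitted log2 fold change of *Smoc1* was 0.94 to 1.21 over 17 alternatives and moved by less than 1 SD between replicates in each. The lowest value came with both the length trend removed and control replicate 2 left out, an alternative chosen after seeing the data. Leaving out 1 mouse at a time gave 0.97 to 1.21. *Smoc2*, *Spock1*, *Spock2* and *Fstl1* stayed above 0 and *Spock3* below 0 in all 17, *Sparc* was above 0 in 16 and *Sparcl1* in 14. Limma on FPKM, where the pseudocount compresses low values, gave 0.10 for *Spock1* and -0.12 for *Spock3*.

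The number of genes past an adjusted p of 0.05 was 0 with edgeR and limma in every alternative, including each left-out mouse (0 to 0). It was 10 with DESeq2 and 11 with DESeq2 without Cook's cutoff and independent filtering, added after seeing the data. At an unadjusted p under 0.05 edgeR called 823 genes without knockout replicate 3 and 929 without replicate 2, and 2405 without control replicate 1 and 2311 without replicate 4, against 1431 with all mice. With the replicate block, edgeR called 0 genes after adjustment and 1723 before it, and *Smoc1* was at 1.13. The block left 0 genes past the adjusted threshold, as without it. Of the 97 related genes, 15 were higher and 3 lower at an unadjusted p under 0.05 with the block, against 11 and 3 without it. Among the named genes outside the family 2 changed sides of that unadjusted threshold, *Tgfbr3* (0.49) passing it and *Msx2* (1.11) no longer passing.

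The order of levels was the same when each of the 8 mice was left out, and also with TPM and log2(FPKM + 1), which cannot alter the order within a mouse, with 6 to 7 of 7 neighbours differing when 1 mouse was left out. The 5 genes most like *Smoc1* shared 0 genes with those found from deviations from the group means, and 0 with those found without control replicate 2. Of 519 values of named genes outside the family, 13 moved by over 1 SD and 7 took the other sign, and of 119 list medians 7 moved.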

Other observations

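Pericyte and smooth muscle markers summed to 150.0 to 184.0 FPKM in knockout mice and 89.5 to 159.9 in control mice, with a median log2 fold change of 0.44 over 6 genes. Endothelial markers had a median of 0.15 over 7 genes, Schwann cell and nerve markers 0.26 over 6 and keratinocyte markers 0.11 over 6. Skeletal muscle markers had 0.031 over 7 genes, adipocyte markers 0.047 over 6, salivary gland markers 0.043 over 5 tested and macrophage markers -0.12 over 5. After Benjamini-Hochberg adjustment 0 genes of these lists passed edgeR's test. At an unadjusted p under 0.05, *Ncam1* of the nerve list was higher and *C1qb* of the macrophage list lower, and the other lists named here had 0.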
